A study of Mus musculus with 8 samples.

Results

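The hepatic sulfotransferases described here are 10 mouse genes: Sult1a1, Sult1b1, Sult1c2, Sult1d1, Sult2a1, Sult2a2, Sult2a4, Sult2a6, Sult3a1 and Sult5a1. They were found as the non-control array probes whose RefSeq accession belongs to one of these symbols. This gave 15 probes, 5 of the genes having 2 probes each, and all 10 genes passed the filter on dim probes, among 15830 genes that did so in the whole data set. RNA of whole livers was measured on 1-colour Agilent mouse arrays, 1 array per mouse. There were 4 groups of 2 mice: AKP::Keap1 males, AKP males, AKP::Keap1 females and AKP females. In the liver all 8 mice expressed an activated oncogene together with p53 bearing the R172H substitution, and Keap1 was in addition deleted there in AKP::Keap1 mice. No group without the oncogene and mutant p53 was part of the data used, and the promoter that directs these changes to the liver and the ages of the mice are not given in the sources used here. The study addresses how Keap1 loss, which releases the transcription factor Nrf2, acts in livers that develop bile duct cancer.

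Cytosolic sulfotransferases move a sulfate group from the donor PAPS (3′-phosphoadenosine 5′-phosphosulfate) onto phenols, catecholamines, thyroid hormones, steroids, bile acids and amines, which makes these molecules more soluble in water and usually less active. Liver is a main site of this reaction. In mice several Sult2a genes and Sult3a1 are known to be expressed mainly in female liver, a sex difference that follows the secretion pattern of growth hormone. The Sult1 family acts mainly on phenols and the Sult2a family on steroids and bile acids.

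The promoter windows of 4 members are shown because the genes differ most in what the arrays found: Sult2a4, Sult2a6 and Sult3a1 were bright in females, and Sult1d1 had the largest fall in AKP::Keap1 livers. Each window is the RefSeq sequence from 250 bases before to 50 bases after the gene start, 5′ to 3′ on the gene's strand, in assembly GRCm38.p6. The Sult2a4 window is at chr7:13989539-13989838 (minus strand), that of Sult2a6 at chr7:14254821-14255120 (minus strand), that of Sult3a1 at chr10:33857472-33857771 (plus strand) and that of Sult1d1 at chr5:87568957-87569256 (minus strand). Capitals mark matches to the motifs named after the sequences.
Sult2a4: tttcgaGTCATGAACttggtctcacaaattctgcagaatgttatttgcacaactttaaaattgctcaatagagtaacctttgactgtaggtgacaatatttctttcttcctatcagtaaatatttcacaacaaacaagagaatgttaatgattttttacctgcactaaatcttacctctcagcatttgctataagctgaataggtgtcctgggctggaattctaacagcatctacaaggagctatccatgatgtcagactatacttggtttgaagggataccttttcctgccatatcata
Sult2a6: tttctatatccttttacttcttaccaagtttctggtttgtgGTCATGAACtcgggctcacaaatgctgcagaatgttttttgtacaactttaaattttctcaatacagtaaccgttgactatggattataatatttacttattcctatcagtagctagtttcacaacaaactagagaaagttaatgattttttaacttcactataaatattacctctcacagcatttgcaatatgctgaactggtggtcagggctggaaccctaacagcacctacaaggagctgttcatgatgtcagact
Sult3a1: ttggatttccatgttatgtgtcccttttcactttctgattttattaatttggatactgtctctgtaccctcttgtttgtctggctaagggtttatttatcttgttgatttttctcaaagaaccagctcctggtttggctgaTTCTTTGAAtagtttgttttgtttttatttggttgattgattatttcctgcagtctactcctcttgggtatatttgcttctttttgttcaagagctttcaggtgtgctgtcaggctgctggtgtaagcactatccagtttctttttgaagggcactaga
Sult1d1: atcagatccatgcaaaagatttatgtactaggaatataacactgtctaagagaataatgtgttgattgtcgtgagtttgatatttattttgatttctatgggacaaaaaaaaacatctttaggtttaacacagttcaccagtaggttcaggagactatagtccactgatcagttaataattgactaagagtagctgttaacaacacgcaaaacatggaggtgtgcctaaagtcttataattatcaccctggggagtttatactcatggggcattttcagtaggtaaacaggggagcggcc

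Windows were found for 8 of the 10 members, 9 windows in all. Each was searched on both strands for 3 sets of letters, which do not overlap one another in these windows. TGACNNNGC, the core of the antioxidant response element that Nrf2 binds, was in none of the members' windows and in 12.4% of 32851 windows of mouse genes. TTCNNNGAA, the site of STAT5, which carries the growth hormone signal, was in 8.3% of those windows and in that of 1 member, Sult3a1, at position -109 from the start. GTCATGANC belongs to an inverted repeat without a spacer that is known from rat and mouse Sult2a promoters as an element for nuclear receptors. Its letters and their number were chosen after the windows had been read. It was in 184 of the 32851 windows (0.56%), among them those of 3 of 5 Sult2a genes with a window, including Sult2a4 (position -244) and Sult2a6 (position -209). Over the 265 aligned columns in which the Sult2a4 and Sult2a6 windows overlap, 221 bases (83.4%) were identical. A match of letters is a description and not a binding site.

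Between 65.7% and 70.7% of the spots per array were well above background, and none was saturated. Keap1 was lower in all 4 AKP::Keap1 livers, at -1.40 to -0.52, than in the 4 AKP livers, at 1.68 to 2.14, on a log2 scale relative to each array's 75th percentile. This scale is used for all levels below, and levels of different probes cannot be set against each other. The Y-linked genes Ddx3y and Eif2s3y were above background in males and in no female. Kdm5d, also Y-linked, was above background in 1 AKP male only. The brighter Xist probe was above background in all females and in both AKP::Keap1 males, at -4.66 and -4.93. The second Xist probe was above background in females only. The cause of this was not tested. Each of the 4 slides held 1 group, and the 2 scan days divided the arrays by sex, so slide and group, and scan day and sex, cannot be told apart. Differences were tested with limma, in a fit over all genes with 1 mean per group, and calls were made where the p adjusted after Benjamini and Hochberg was below 0.05. Differences are log2 values with their standard error (SE), and comparisons that use the same group share its 2 arrays.

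Sult1d1, Sult1c2 and Sult1a1 were lower in AKP::Keap1 than in AKP livers, by 3.23-fold, 2.19-fold and 1.71-fold in the mean over both sexes. These are enzymes of the Sult1 family, which sulfates phenols. Only 5 of the 10 members were above background on every array and so had a measured level in both sexes. Of these 5, 3 fell and none rose, where 17.2% of all genes fell and 21.8% rose, and Sult1b1 and Sult5a1 were not called. The other 5 lay at or near background in males and are described by sex.

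Sult1d1, which in mice sulfates dopamine and other catecholamines as well as phenols, had levels of 1.16 and 0.68 in AKP::Keap1 males, against 3.31 and 3.1 in AKP males. In females its levels were 2.10 and 2.41 in AKP::Keap1 and 3.57 and 3.12 in AKP. Every AKP::Keap1 liver was therefore below every AKP liver of either sex. The level fell by 1.69 ± 0.17 (SE, adjusted p = 0.00158) over both sexes, by 2.29 ± 0.24 in males (4.88-fold, adjusted p = 0.00324) and by 1.09 ± 0.24 in females (2.13-fold, adjusted p = 0.0257). A second, dimmer probe fell less, by 1.38 ± 0.24 in males and 0.39 ± 0.24 in females. With the mean of both probes the female difference was -0.74 and was no longer called (adjusted p = 0.0678).

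Sult1c2, another phenol-type enzyme, had levels of -0.15 and -0.10 in AKP::Keap1 males, against 1.29 and 0.81 in AKP males. In females they were 0.30 and 0.64 in AKP::Keap1 and 1.83 and 1.29 in AKP. As with Sult1d1, no AKP::Keap1 liver reached the lowest AKP liver. The level fell by 1.13 ± 0.18 over both sexes (adjusted p = 0.00526), by 1.17 ± 0.25 in males (adjusted p = 0.0218) and by 1.09 ± 0.25 in females (adjusted p = 0.0301). The fall had nearly the same size in both sexes.

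Sult1a1, the main phenol sulfotransferase of liver, was low in one group. Its levels were 4.30 and 4.43 in AKP::Keap1 males, against 5.67 and 5.70 in AKP males. AKP::Keap1 females had 5.64 and 5.50, and AKP females had 6.11 and 5.47. The AKP::Keap1 males lay below all 6 other livers, whereas the female groups overlapped. The level fell by 1.32 ± 0.22 in males (2.50-fold, adjusted p = 0.0110) and differed by -0.22 ± 0.22 in females (adjusted p = 0.489, 95% interval -0.75 to 0.30). Over both sexes it fell by 0.77 ± 0.15 (adjusted p = 0.0108). The second Sult1a1 probe gave -1.40 ± 0.20 in males and -0.24 ± 0.20 in females. The call over both sexes was lost with unscaled values (-0.46, adjusted p = 0.0781) and with the slide as a random block (-0.77, adjusted p = 0.0839), while those of Sult1c2 and Sult1d1 held under all 19 alternatives.

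**Figure D1:**
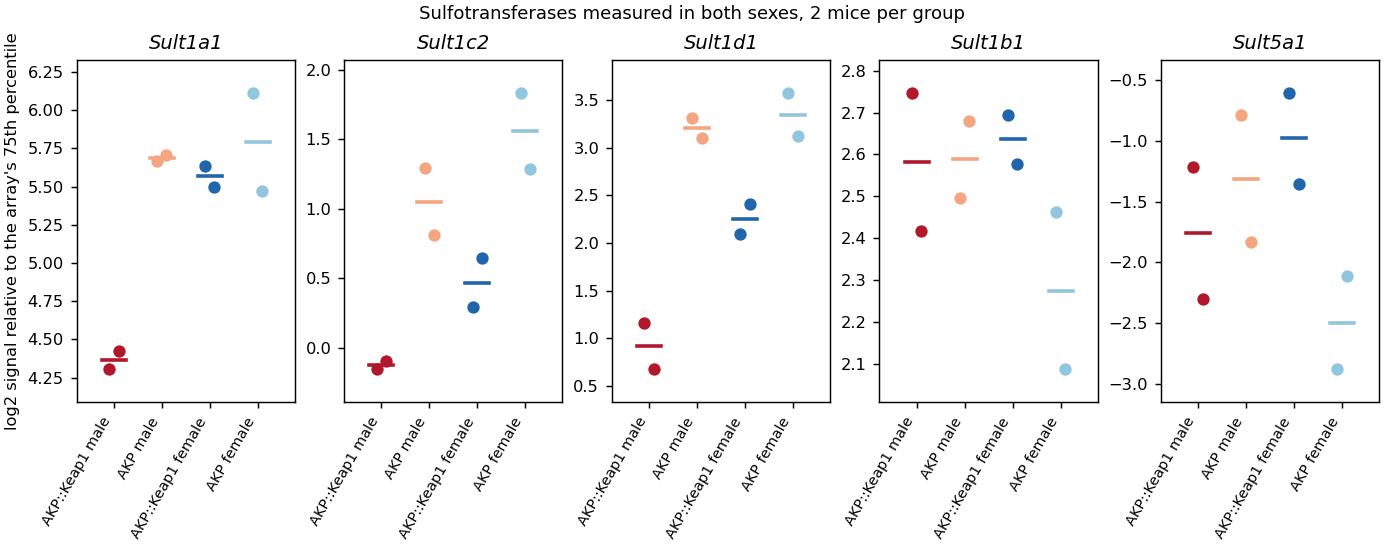
Levels (log2 signal relative to the array's 75th percentile, vertical axis) of the 5 sulfotransferases measured in both sexes, by group on the horizontal axis. Points are the 2 mice of a group and bars are group means, each panel has its own scale, and all points are well above background. For Sult1c2 and Sult1d1 all AKP::Keap1 points lie below all AKP points, and for Sult1a1 the AKP::Keap1 males, at 4.30 and 4.43, lie below the other 6 livers.

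Of the 5 members measured in both sexes, 3 fell within males (Sult1a1, Sult1c2 and Sult1d1), where 11.5% of all genes fell. Within females 2 of the same 5 fell (Sult1c2 and Sult1d1), where 9.1% of all genes fell. Over all 10 members the numbers that fell were the same, and 1, Sult2a2, was called higher in males, where 16.7% of all genes were. In males the Sult1a1 call was lost without AKP male 2 or either AKP::Keap1 male (adjusted p = 0.0518 to 0.0559), and the Sult1c2 call without AKP male 1 or either AKP::Keap1 male (-0.93, -1.15 and -1.20). The male Sult1c2 call was also lost with unscaled values, which gave the smallest difference (-0.67, adjusted p = 0.110). In females both calls were lost without any 1 of the 4 female arrays, where Sult1d1 differed by -1.32 to -0.87 and Sult1c2 by -1.36 to -0.82, and the Sult1c2 call also without either AKP::Keap1 male. No fall changed its sign in these fits.

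In RNA of whole liver, fewer cells of a type and less RNA per cell cannot be told apart. By genotype 17.2% of all genes fell and 21.8% rose. Of 12 hepatocyte markers, 6 fell and none rose by genotype, with a median difference of -0.43 against -0.0008 over all genes tested. The number that fell ranged from 1 with unscaled values to 12 after a shift to the array median, with 3 without AKP male 2 or either AKP::Keap1 male and 11 without AKP::Keap1 female 1. Their linear levels, each relative to the array's 75th percentile, summed to 1689 to 1769 in AKP::Keap1 males, against 2464 to 2871 in AKP males. In females the sums were 1553 to 2047 in AKP::Keap1 and 1936 to 2111 in AKP. Of 12 bile duct markers, 9 rose and none fell, with sums of 86.1 to 102 in AKP::Keap1 males and 17.7 to 18.9 in AKP males, and of 47.7 to 94.0 in AKP::Keap1 females and 7.15 to 13.0 in AKP females. Every hepatocyte and bile duct marker was above background on at least 1 array of each group. Of the other marker lists, 5 of 5 proliferation genes, 4 of 5 neutrophil markers and 5 of 8 markers of stellate cells and fibroblasts rose, with median differences of 1.74, 2.51 and 0.95. Of the 8 markers of stellate cells and fibroblasts 1 fell. Their summed levels were 35.5 to 35.9 in AKP::Keap1 males, lower than 47.5 to 50.3 in AKP males. In females they were 42.6 to 54.3 in AKP::Keap1 and 39.7 to 48.8 in AKP, which overlapped. Of 7 endothelial markers 5 fell and none rose (median -0.44), a number that ranged from 0 with unscaled values to 6 over the alternatives, with 3 without AKP::Keap1 male 2, either AKP::Keap1 female or any 1 AKP array. Of 7 macrophage markers 3 rose and 1 fell, of 7 lymphocyte markers 2 rose, and of 10 markers of gastric and intestinal epithelium 4 rose and 1 fell. Summed, these last 10 had 30.5 to 30.8 in AKP::Keap1 males, lower than 41.3 to 58.2 in AKP males. In females the sums were 26.5 to 28.8 in AKP::Keap1 and 35.0 to 35.1 in AKP. Summed levels of the neutrophil markers were 65.4 to 66.8 in AKP::Keap1 males, against 38.5 to 42.3 in AKP males, and 63.6 to 75.2 in AKP::Keap1 females, against 41.4 to 43.6 in AKP females. Those of the endothelial markers were 22.4 to 23.9 in AKP::Keap1 males, against 29.1 to 30.6 in AKP males, and 23.6 to 25.3 in AKP::Keap1 females, against 29.9 to 30.6 in AKP females. The part of these markers in the falls of Sult1a1, Sult1c2 and Sult1d1 was not tested.

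Sult1b1, which sulfates thyroid hormones, had levels of 2.75 and 2.42 in AKP::Keap1 males and 2.50 and 2.68 in AKP males. AKP::Keap1 females had 2.69 and 2.58, and AKP females had 2.46 and 2.09. The male groups overlapped and the female groups did not. The difference was -0.01 ± 0.19 in males (adjusted p = 0.982, 95% interval -0.46 to 0.44) and 0.36 ± 0.19 in females (adjusted p = 0.207, 95% interval -0.09 to 0.81). A shift to the array median turned the sign over both sexes, and other scalings the sign in males.

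Sult5a1, a family member whose substrate is not well established, spread widely between mice. It had levels of -1.22 and -2.30 in AKP::Keap1 males and -0.79 and -1.83 in AKP males, which overlapped. In females AKP::Keap1 livers had -0.61 and -1.35, both above the AKP livers with -2.88 and -2.11. The female difference of 1.51 ± 0.53 was not called (adjusted p = 0.0907), nor was the male one of -0.45 ± 0.53 (adjusted p = 0.546). After another background correction, normexp on the median signals, the female difference was 1.18 and called (adjusted p = 0.0495).

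Whether Keap1 loss acted differently in the sexes was tested as the female minus the male genotype difference. None of the 10 members was called, where 1.72% of all genes were. Sult1a1 had 1.10 ± 0.31 (adjusted p = 0.113) and Sult1d1 1.19 ± 0.34 (adjusted p = 0.116), which is a smaller fall in females for both. Sult1a1 was called after a shift to the array median (1.34, adjusted p = 0.0498). For Sult5a1 the value was 1.96 ± 0.75 (adjusted p = 0.191), for Sult1b1 0.37 ± 0.26 (adjusted p = 0.444) and for Sult1c2 0.09 ± 0.36 (adjusted p = 0.911). Sult2a1 had -0.78 ± 0.30 (adjusted p = 0.188) and Sult2a2 -1.47 ± 0.39 (adjusted p = 0.105). For both, neither AKP male was above background.

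**Figure D2:**
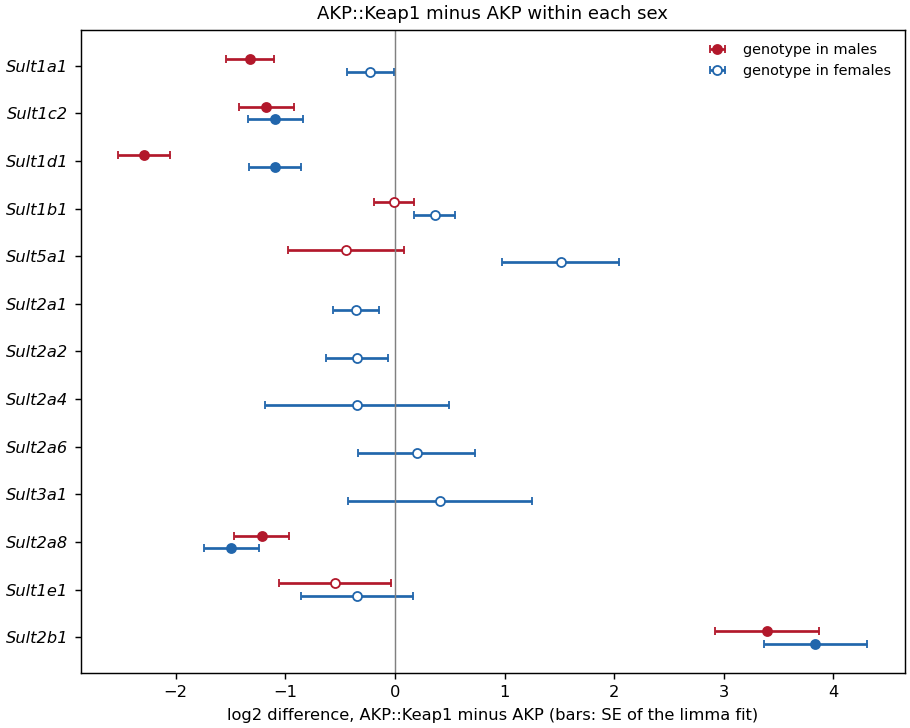
Differences AKP::Keap1 minus AKP (log2, horizontal axis) in males (red) and females (blue) for the members and 3 other sulfotransferases. Points are limma estimates, bars are standard errors, filled points were called, and male values of Sult2a1, Sult2a2, Sult2a4, Sult2a6 and Sult3a1 are not drawn because the male signals lay at or near background. Sult1d1 in males, at -2.29, is the lowest point drawn, and Sult2b1, at 3.39 and 3.84, is the highest.

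Sult2a1, Sult2a2, Sult2a4, Sult2a6 and Sult3a1 were bright in all 4 females and at or near background in all 4 males, in either genotype. Enzymes of the Sult2a family sulfate bile acids and steroids such as dehydroepiandrosterone, and Sult3a1 acts on amines. Sult2a1 had levels of 5.61 and 6.04 in AKP::Keap1 females, against -6.27 and -6.20 in AKP::Keap1 males. In AKP livers it had 6.35 and 6.01 in females, against -6.83 and -6.49 in males. Sult2a genes lie in a cluster of similar sequences, so their probes may share signal.

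Sult2a2 gave the same picture, with 5.67 and 5.80 in AKP::Keap1 females and -5.81 and -5.50 in AKP::Keap1 males. In AKP livers it had 6.28 and 5.88 in females and -7.16 and -6.41 in males. Sult2a4 had 4.24 and 4.80 in AKP::Keap1 females, -6.33 and -7.87 in AKP::Keap1 males, 5.06 and 4.67 in AKP females and -8.39 and -6.00 in AKP males. For both genes the gap between the sexes was many times the distance between the mice of any group.

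Sult2a6 had 4.91 and 5.40 in AKP::Keap1 females, and -8.73 and -7.04 in AKP::Keap1 males. In AKP livers it had 5.21 and 4.71 in females and -8.36 and -8.17 in males. Sult3a1 had 2.04 and 1.67 in AKP::Keap1 females, -8.69 and -6.67 in AKP::Keap1 males, 0.65 and 2.24 in AKP females and -8.61 and -7.26 in AKP males. No male array was above background for either gene. The second probe of Sult2a4 had 2.43 and 3.09 in AKP::Keap1 females and 2.39 and 2.47 in AKP females, and was above background in no male. The second probe of Sult2a6 was dimmer, at -1.09 and -0.77 in AKP::Keap1 females and -1.25 and -1.79 in AKP females, and was likewise above background in females and in no male.

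**Figure D3:**
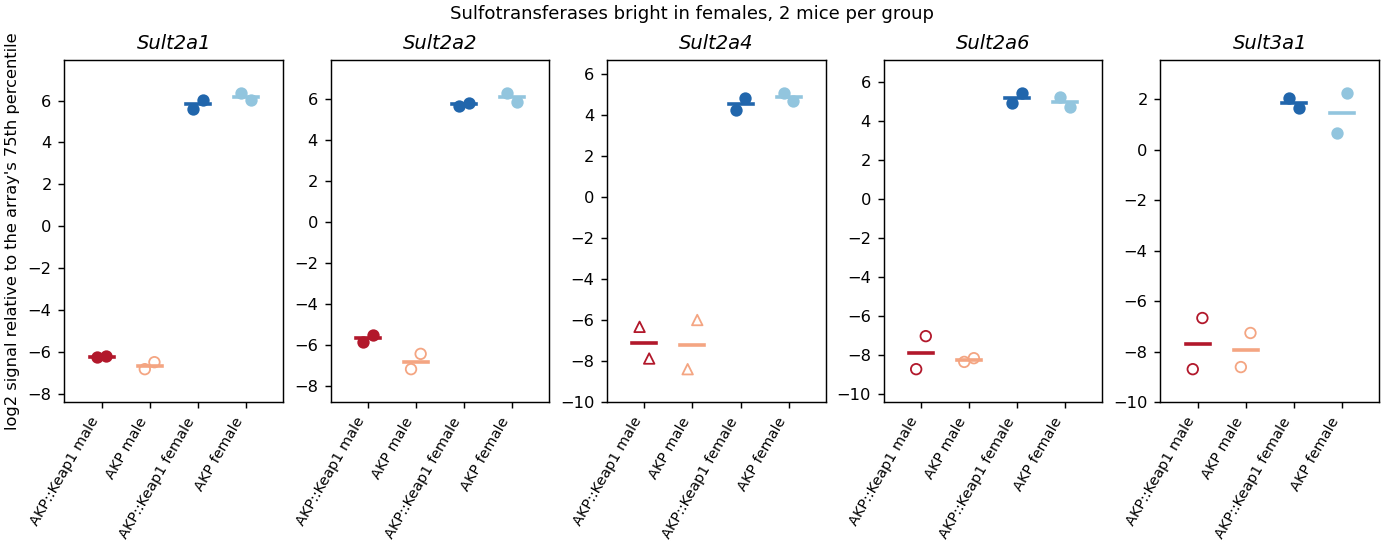
Levels (log2 signal relative to the array's 75th percentile, vertical axis) of the 5 sulfotransferases bright in females, by group on the horizontal axis. Points are the 2 mice of a group and bars are group means. Filled points belong to groups with both arrays well above background, triangles to groups with 1 of 2, open circles to groups with none. Females lie between 0.65 and 6.35 and males between -8.73 and -5.50.

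Between the sexes, 7 of 10 members were higher in AKP::Keap1 females than in AKP::Keap1 males, where 1.18% of all genes were. Among the 7, Sult2a6 and Sult3a1 passed the filter on dim probes only through female arrays, so their direction was fixed by the filter. Sult2a1 differed by 12.06 ± 0.21 (4262-fold, adjusted p = 8.1e-06), Sult2a2 by 11.39 ± 0.28 (adjusted p = 3.4e-05) and Sult2a4 by a fitted 11.62 ± 0.84 (adjusted p = 0.0018), in which 1 of the 2 male levels was not above background. A probe that is above background on no array of a group has only a bound there, with each dim value raised to the lowest signal above background on its array. On that basis Sult2a6 was at least 3762-fold higher (adjusted p = 0.00039) and Sult3a1 at least 377-fold (adjusted p = 0.0036). Here and below, an adjusted p beside a bound belongs to the fitted difference without raised values and does not test the bound. The other 2 members higher in females were Sult1a1, with 1.20 ± 0.22 (adjusted p = 0.0410), and Sult1d1, with 1.34 ± 0.24 (adjusted p = 0.0398). Their calls were lost under 9 and 13 of 19 alternatives. Among these were the fits without any 1 of the 4 AKP::Keap1 arrays or either AKP male, which gave 1.13 to 1.27 for Sult1a1 and 1.10 to 1.58 for Sult1d1, and for Sult1d1 also those without either AKP female.

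In AKP livers, 5 of 10 members were higher in females than in males, where 9.68% of all genes were. Sult2a6 and Sult3a1 are among the 5, and their direction was again fixed by the filter. Sult2a1 was at least 6802-fold higher in AKP females than in AKP males (adjusted p = 5.5e-06), Sult2a2 at least 6178-fold (adjusted p = 1.9e-05), Sult2a6 at least 2921-fold (adjusted p = 0.00036) and Sult3a1 at least 256-fold (adjusted p = 0.0045). Sult2a4 was above background in 1 of 2 AKP males and differed by a fitted 12.06 ± 0.84 (adjusted p = 0.0029). The Sult1 members were near each other in the sexes: Sult1a1 differed by 0.10 ± 0.22 (95% interval -0.42 to 0.63) and Sult1d1 by 0.14 ± 0.24 (95% interval -0.43 to 0.72). Sult1b1 (-0.31), Sult1c2 (0.51) and Sult5a1 (-1.18 ± 0.53, adjusted p = 0.157) were not called either.

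Within females, the 5 female-bright members were not called between the genotypes. Sult2a1 differed by -0.36 ± 0.21 (adjusted p = 0.265, 95% interval -0.87 to 0.15) and Sult2a2 by -0.35 ± 0.28 (adjusted p = 0.407, 95% interval -1.02 to 0.33). The AKP::Keap1 females lay below the AKP females for Sult2a2 and overlapped them for the other 4 genes. The second Sult2a2 probe had the opposite sign, 0.39 ± 0.48, and was above background in 1 AKP::Keap1 male and no AKP male. Sult2a4 differed by -0.34 ± 0.84 (95% interval -2.38 to 1.69), Sult2a6 by 0.20 ± 0.53 (95% interval -1.09 to 1.49) and Sult3a1 by 0.41 ± 0.84 (95% interval -1.62 to 2.44). The fitted spread of all 5 genes includes male values at background, and for Sult3a1 the AKP females were also far apart. The second probes gave 0.33 ± 0.22 for Sult2a4, the opposite sign to its first, and 0.59 ± 0.21 for Sult2a6, a larger difference than its first.

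In males the Sult2a signals lay just above or at background. Sult2a1 and Sult2a2 were above background in both AKP::Keap1 males and in neither AKP male. Sult2a2 was the 1 member called higher in AKP::Keap1 males, at least 1.81-fold (adjusted p = 0.0317), where 16.7% of all genes were higher, and Sult2a1 was at least 1.25-fold higher without a call (adjusted p = 0.166). The fitted Sult2a2 difference of 1.13 ± 0.28 was no longer called in 7 of 18 alternatives, including those that left out either AKP::Keap1 male (1.28 and 0.97) or AKP male 1 (0.75), and it turned to -0.40 after normexp on the median signals. Sult2a4 was above background in 1 of 2 males of each genotype, and Sult2a6 and Sult3a1 in none. For these 5 genes the mean over both sexes therefore includes male values at background and is not given as a measured change.

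The sex difference of the Sult2a genes and Sult3a1 stood beside that of a list of other genes known to be female-biased in mouse liver. Of 15 of these, 8 were higher in AKP::Keap1 females than in AKP::Keap1 males, where 1.18% of all genes were. Their median was 4.51, against 0.02 over all genes. In AKP livers 13 were higher in females than in males, where 9.68% of all genes were, and none was lower. Their median was 4.44, against -0.01 over all genes. In the males of each genotype, 2 of the 15 female-biased genes were above background on no array. A gene among them that passed the filter on dim probes only through female arrays had its direction fixed by the filter. Of 17 male-biased genes, 12 were lower in AKP::Keap1 females than in AKP::Keap1 males, where 2.62% of all genes were, and 14 in AKP females than in AKP males, where 9.76% were. Cyp4a12b differed by -9.31 ± 0.39 in AKP livers.

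Of 11 further sulfotransferase genes, 8 had a named probe and 5 were bright enough to test, of which 1 rose and 1 fell by genotype. Of all genes 21.8% rose and 17.2% fell. Sult2b1, which sulfates cholesterol and is known mainly from skin and other epithelia, had levels of -2.68 and -2.57 in AKP::Keap1 males, against -5.93 and -6.10 in AKP males. In females its levels were -3.23 and -1.77 in AKP::Keap1 and -6.00 and -6.67 in AKP. All AKP::Keap1 livers were above all AKP livers, with a difference of 3.61 ± 0.33 (adjusted p = 0.0014), but 1 AKP female array was not above background. After normexp on the median signals the difference was 1.25, and it was called under all 18 alternatives that kept the gene.

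Sult2a8, known as a bile acid sulfotransferase of mouse liver, moved the other way. It had 5.43 and 4.79 in AKP::Keap1 males against 6.56 and 6.09 in AKP males, and 4.0 and 4.08 in AKP::Keap1 females against 5.58 and 5.49 in AKP females. The groups did not overlap within either sex, and the level fell by 1.35 ± 0.18 (adjusted p = 0.0032). Unlike the 4 Sult2a members it was bright in both sexes. Sult1e1, the oestrogen sulfotransferase, differed by -0.45 ± 0.36 (adjusted p = 0.354) and Sult4a1, a brain-type member, by -0.20 ± 0.17 (adjusted p = 0.371). Sult3a2, a relative of Sult3a1, was above background in females and in no male. It was at least 2.43-fold higher in AKP::Keap1 females than in AKP::Keap1 males (adjusted p = 0.0363) and at least 3.41-fold higher in AKP females than in AKP males (adjusted p = 0.0138). Sult3a2 passed the filter on dim probes only through female arrays, so this direction was fixed by the filter.

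Sulfotransferases depend on PAPS, which is made from inorganic sulfate. Of 12 listed names of sulfate uptake, sulfate formation and PAPS turnover (2 of them, Bpnt2 and Impad1, for the same gene), 9 genes were tested, of which 4 fell and none rose by genotype. Of all genes 17.2% fell and 21.8% rose. The median difference of the 9 genes was -0.02, against -0.0008 over all genes. Slc26a1, the sulfate transporter of the hepatocyte's blood side, fell by 0.90 ± 0.11 (adjusted p = 0.0027). Its mean level was 2.07 in AKP::Keap1 males, against 3.61 in AKP males, and 2.80 in AKP::Keap1 females, against 3.07 in AKP females. Papss2, the PAPS synthase that predominates in liver, fell by 0.74 ± 0.14 (adjusted p = 0.0102). It had 3.83 in AKP::Keap1 males, against 5.03 in AKP males, and 5.28 in AKP::Keap1 females, against 5.56 in AKP females.

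Both genes were called within males (Slc26a1 -1.54 ± 0.16, Papss2 -1.20 ± 0.20) and not within females (-0.26 ± 0.16 and -0.28 ± 0.20), and the difference between the sexes was not called (Slc26a1 1.28 ± 0.22, adjusted p = 0.0536; Papss2 0.92 ± 0.29, adjusted p = 0.136). Cysteine dioxygenase Cdo1 and sulfite oxidase Suox, which form sulfate from cysteine, fell by 0.66 ± 0.12 (adjusted p = 0.0075) and 0.51 ± 0.15 (adjusted p = 0.0398). The other synthase, Papss1 (0.11), the PAPS carrier Slc35b3 (-0.02), the phosphatases Bpnt1 (0.20) and Bpnt2 (-0.02) that remove the spent donor, and the sulfate transporter Slc26a2 (0.46) were not called. The Slc26a1 call was lost with the slide as a random block, that of Cdo1 with unscaled values, and that of Papss2 with either. The Suox call was lost under 10 of 19 alternatives, among them those without either AKP male, AKP::Keap1 male 2, AKP female 1 or either AKP::Keap1 female. With unscaled values 1 gene of the list fell and 2 rose.

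**Figure D4:**
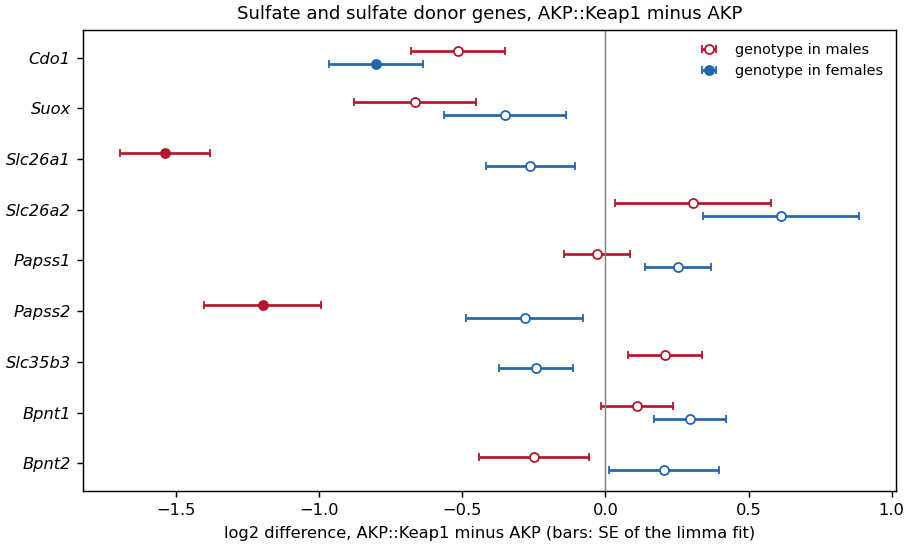
Differences AKP::Keap1 minus AKP (log2, horizontal axis) of 9 genes of sulfate and PAPS supply and removal in males (red) and females (blue). Points are limma estimates, bars are standard errors, and filled points were called. Slc26a1 at -1.54 and Papss2 at -1.20 were called in males, and Cdo1 at -0.80 in females.

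Sulfatases, which take sulfate groups off again, were tested for 12 genes, of which 3 fell and none rose by genotype, where 17.2% of all genes fell. These were the lysosomal Arsa (-0.70 ± 0.10, adjusted p = 0.0037), Arsb (-0.39 ± 0.12, adjusted p = 0.0446) and Arsk (-0.43 ± 0.12, adjusted p = 0.0310). Their median was -0.27. Arsb and Arsk were called lower in females (-0.96 ± 0.17 and -1.09 ± 0.16), while in males they had 0.17 ± 0.17 and 0.24 ± 0.16 without a call. Arsa was called lower in both sexes. Over both sexes the calls of Arsb and Arsk were lost under 12 and 10 of 19 alternatives, including those without any 1 of the 4 AKP::Keap1 arrays, AKP male 2 or AKP female 1, and for Arsb also without AKP female 2. The Arsa call was lost with unscaled values. After a shift to the array median 9 of the 12 fell, with unscaled values none fell and 1 rose and the median was 0.04, and with the mean of its probes Arsk turned to 0.28.

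Of 19 receptors and factors reported to act on Sult genes, 8 fell and 1 rose by genotype, with a median of -0.28. Of all genes 17.2% fell and 21.8% rose. The bile acid receptor Nr1h4 fell by 0.76 ± 0.17 (adjusted p = 0.0156), the orphan receptor Rora by 0.91 ± 0.11 (adjusted p = 0.0025), the growth hormone receptor Ghr by 0.62 ± 0.10 (adjusted p = 0.0055) and Onecut1 by 2.39 ± 0.59 (adjusted p = 0.0218). Hnf4a, Rxra, Nr3c1 and Nfe2l2, which encodes Nrf2, were the others that fell, by 0.28 to 0.50. The calls of Rora held under all 19 alternatives and those of Nr1h4, Rxra and Ghr under all but unscaled values. That of Onecut1 was lost without AKP male 1, AKP female 2 or AKP::Keap1 female 2. Those of Hnf4a, Nfe2l2 and Nr3c1 were lost under 8, 8 and 13 of 19, several of them left-out arrays. Nr3c1 turned to 0.03 with unscaled values, with which 2 genes of the list fell, against 11 after a shift to the array median and 5 to 7 with 1 array left out. The drug receptors Nr1i2 (-0.58 ± 0.20, adjusted p = 0.0651) and Nr1i3 (0.34 ± 0.19, adjusted p = 0.210) were not called. Cux2, a female-biased factor, was above background in no AKP male and at least 19.8-fold higher in AKP females than in AKP males (adjusted p = 0.0035).

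The genes whose pattern over the 8 arrays came closest to that of Sult1d1, the member with the largest called fall, were Raet1e and the fatty acid desaturases Fads2 and Fads1. Likeness was measured as the root mean square difference of log2 values, each gene centred on its own mean, which was 0.33, 0.35 and 0.38. Fads2 differed by -1.64 between AKP::Keap1 and AKP males and by -1.24 between the females, and Fads1 by -1.34 and -1.22.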

How the data were processed

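Per the labels, total RNA of 8 whole livers was labelled with Cy3, 500 ng each. Per spot the deposited scanner files give an intensity on a linear scale, made per the file headers with Agilent Feature Extraction 10.7.3.1 and an mm9 annotation (the submitters' processing notes name version 10.1). The processed signal, already background-subtracted by the authors' software, was used. The series matrix held the same intensity in 355176 of 355176 values. Control and outlier spots were left out, log2 signals of a probe's spots were averaged and each array's 75th percentile was subtracted. Of 39429 probes, 26049 received 1 symbol through RefSeq accessions and 13380 stayed unnamed. Probes had to be well above background on 2 or more of the 8 arrays, and for each gene the brightest was used, which left 15830 genes. Where a member has a second probe, its values are given too.

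Differences were fitted with limma 3.58.1 in R 4.3.3 (lmFit, eBayes) over all 8 arrays, for 6 contrasts, two-sided, with Benjamini-Hochberg adjustment over all genes, and tested on simulated data. The number of arrays, 2 per group, limits the precision. The alternatives were 4 other scalings or background corrections, filters, the mean of probes, other variance models, the slide or replicate number as a block, fits of the compared arrays alone, a floor for dim values, and each of the 8 arrays left out. All 10 members and every member of the lists of sulfotransferases, sulfate supply, sulfatases and receptors could be named, of other lists the 3 with the smallest adjusted p, and for likeness the 3 nearest genes. Beyond this rule, Xist and Kdm5d are named as checks of sex. A few genes of these lists are counted in the list totals and not reported here by name. The members and lists were chosen with earlier results of these data known. Promoter windows come from RefSeq (GRCm38.p6), and gene coordinates are not given, because the files use another build.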

Additional observations from a re-analysis of the deposited data

How the results depend on the processing

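Of the values for single members, those of Sult1c2 and Sult1d1 over both sexes and of Sult1d1 in males kept their call and direction under all 19 alternatives, and those of the female-bright genes between the sexes under all 18 that could be computed. Counts moved with the scaling and with the arrays left out. The median genotype difference of all genes moved to -0.25 after a shift to the array median, to 0.31 with unscaled series matrix values and to -0.12 after normexp on the median signals. That correction and a fit with dim values raised to the floor were chosen after seeing the data. Normexp on mean signals was not run, because the files hold no mean signal column. With 2 mice per group, 1 spread shared over 4 groups and 4 residual degrees of freedom, small differences could not be resolved, and where an array is left out the lone mouse of its group is assumed to vary like the others. Signals at background limit every male value of the Sult2a genes and Sult3a1.

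By genotype, 3455 genes were higher and 2727 lower. After the median shift 6370 were lower, with unscaled values 5704 were higher and 645 lower, after normexp 2192 were higher, and with the slide as a random block 2136 were higher and 1173 lower. With 1 array left out, 2531 to 3083 were higher and 1599 to 2374 lower. In males, 2649 genes were higher and 1813 lower. After quantile normalization 1761 were higher, after the median shift 1710 were higher and 6520 lower, with unscaled values 5404 and 170, after normexp 1526 and 4216, and with 1 array left out 825 to 2637 and 208 to 1650. In females 1440 genes were lower, against 2181 after the median shift, 654 with unscaled values, 528 in a fit of the female arrays alone and 317 to 1172 with 1 array left out. For genotype by sex, 272 genes were called, against 160 after quantile normalization, 1189 after the median shift, 459 unscaled, 118 without a filter on dim probes, 421 with probes above background on all arrays, 541 with trend and robust variances and 0 to 51 with 1 array left out. Between AKP females and males 1533 genes were higher, against 997 after the median shift, 800 unscaled, 917 after normexp, 726 in a fit of the AKP arrays alone and 205 to 1361 with 1 array left out. Between AKP::Keap1 females and males 187 were higher, against 82 unscaled, 283 after normexp, 297 with trend and robust variances, 81 in a fit of these arrays alone and 39 to 147 with 1 array left out.

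Among members, the 1 called higher in males became 0 after quantile normalization, the median shift, normexp, the strict filter and the fit of the male arrays alone, and 0 to 1 with 1 array left out. The 3 called lower in males became 1 to 3 with 1 array left out. The 2 called lower in females became 0 with unscaled values or the female arrays alone, 1 with the mean of the probes and 0 to 2 with 1 array left out. The 0 members called by genotype and sex became 1 after the median shift. With probes above background on all arrays, which removes the female-bright genes, the members higher in females became 2 in AKP::Keap1 and 0 in AKP livers, and with 1 array left out 5 to 6 in AKP::Keap1 and 5 to 5 in AKP livers.

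Signs that turned belong to values that were not called, apart from Sult2a2. After the median shift Sult1b1 had -0.069 over both sexes, and between AKP females and males Sult1a1 had -0.11 and Sult1d1 -0.075. In males Sult1b1 had 0.20 and Sult2a1 -0.014 after quantile normalization, Sult1b1 had 0.50 and Sult5a1 0.058 unscaled, and Sult2a1 had -0.61 and Sult2a2 -0.40 after normexp. In females Sult2a2 had 0.021 with the mean of its probes. Unscaled, the genotype by sex values were -0.024 for Sult1b1 and -0.31 for Sult1c2, and the sex difference of Sult1b1 in AKP::Keap1 livers was -0.33. With 1 array left out, the male values ran from -0.17 to 0.16 for Sult1b1 and from -0.99 to 0.093 for Sult5a1. The female values ran from -0.54 to 0.10 for Sult1a1, from -0.39 to 1.20 for Sult3a1 and from -0.052 to 0.45 for Sult2a6, and the genotype by sex values of Sult1c2 from -0.19 to 0.36. Sex differences ran from -0.22 to 0.42 for Sult1a1 and from -0.081 to 0.37 for Sult1d1 in AKP livers, and from -0.11 to 0.22 for Sult1b1 in AKP::Keap1 livers. The cause of these changes was not tested.

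The titles number the mice alike in all groups without saying that a number pairs them. The differences between replicates 1 and 2 correlated between groups at -0.16 to 0.12, so no difference shared by the replicate numbers was seen. A correlation over all genes cannot decide whether the numbers pair the mice. With the replicate number as a block, the 3 members lower over both sexes and the 0 called for genotype by sex were as before, 59 genes were called for genotype by sex, 116 were higher in AKP::Keap1 females than in AKP::Keap1 males, and of the members Sult1a1 (adjusted p = 0.0625) and Sult1d1 (adjusted p = 0.0558) were no longer called there.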
